A study of Homo sapiens with 40 samples.

Results

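The genes examined here were 9 of 19690 annotated genes (protein-coding genes and TERC) in GENCODE 44. These were the telomerase and shelterin genes TERT, TERC, TERF1, TERF2, TERF2IP, POT1, TINF2 and ACD, together with the helicase gene RTEL1. They were chosen by name, with earlier results of these data known. Each was given every H3K27ac and CTCF peak within 2 kb of its start sites or in its gene body. Peaks nearest to its start sites within 100 kb were added. This gave 17 of 51489 H3K27ac peaks, of which 10 lay at start sites, 5 in gene bodies and 2 farther away. For CTCF it gave 16 of 51457 peaks, of which 5 lay at start sites, 5 in gene bodies and 6 farther away.

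The cells were EndoC-βH3, a human beta-cell line derived from fetal pancreas and grown for insulin secretion studies. The line carries excisable transgenes for hTERT and SV40 large T antigen together with a tamoxifen-inducible Cre recombinase. Non-senescent cells had received no 4-hydroxytamoxifen (4-OHT), and senescent cells had received it for 3 weeks, which excises the transgenes. Chromatin immunoprecipitation followed by sequencing (ChIP-seq) was carried out for H3K27ac, the acetylated histone of active promoters and enhancers, and for CTCF, a DNA-binding protein at loop anchors and insulators. Each was measured in 3 non-senescent and 3 senescent libraries of this one line, all of which carried the recombinase. All 11 beta-cell marker genes checked had an H3K27ac peak at a start site, at 159.5 to 537 normalized reads per kb with a median of 391. Of 14 markers of alpha, acinar, duct, fibroblast, endothelial and blood cells, 4 had such a peak, at 50.1 to 303 per kb, so the ranges overlapped. The fibroblast, endothelial and blood markers were without.

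The hTERT transgene bears directly on TERT. Reads from a coding-sequence transgene align to the coding exons of the TERT gene, and the transgene was present in the non-senescent cells and excised from the senescent cells. Over those exons, reads from the chromosomal gene and reads from the transgene cannot be told apart in these values, so TERT is described by where its peaks lie. The gene spans chromosome 5, 1253147 to 1295068 (hg38), and starts on the minus strand.

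Telomerase extends chromosome ends with a reverse transcriptase subunit, encoded by TERT, that copies a short template in the RNA encoded by TERC. Most adult human cells keep TERT silent, and the proliferative life of a cell without telomerase is limited by loss of telomere repeats. Shelterin coats these repeats and keeps chromosome ends from being taken for broken DNA. Its proteins TRF1 (TERF1) and TRF2 (TERF2) bind the duplex repeats, RAP1 (TERF2IP) binds TRF2, POT1 binds the overhang, TPP1 (ACD) holds POT1 and recruits telomerase, and TIN2 (TINF2) bridges them. RTEL1 is a helicase that unwinds telomeric loops and secondary structures during replication.

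The sequences around the start sites of TERT and of the 3 genes with the lowest adjusted p for start-site H3K27ac are shown first, since the peaks described next lie over them, wholly for POT1, RTEL1 and TINF2 and for TERT over the part nearest to the start site. RefSeq (GRCh38.p14) promoter sequences were matched for 6 of the 9 genes, at 8 start sites, and none was matched for TERC, TERF1 or TERF2. Each line gives 270 bases 5′ to 3′ on the gene's strand, 250 before the start site and 20 after it. Capitals mark matches, on either strand, to a GC box (GGGCGG), an E-box (CACGTG), a cAMP response element (TGACGTCA) or an ETS core (CCGGAAGT). The TERT line is chr5:1295049-1295318, POT1 is chr7:124929806-124930075, and both are on the minus strand. TINF2, at the downstream of its matched start sites, is chr14:24242604-24242873 on the minus strand, and RTEL1, also at the downstream one, is chr20:63658062-63658331 on the plus strand.
TERT: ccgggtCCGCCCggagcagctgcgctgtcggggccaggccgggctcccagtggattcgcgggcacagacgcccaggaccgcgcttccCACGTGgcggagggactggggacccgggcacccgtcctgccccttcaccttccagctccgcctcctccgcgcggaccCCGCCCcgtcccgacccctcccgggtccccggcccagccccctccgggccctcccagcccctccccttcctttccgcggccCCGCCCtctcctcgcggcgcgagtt
POT1: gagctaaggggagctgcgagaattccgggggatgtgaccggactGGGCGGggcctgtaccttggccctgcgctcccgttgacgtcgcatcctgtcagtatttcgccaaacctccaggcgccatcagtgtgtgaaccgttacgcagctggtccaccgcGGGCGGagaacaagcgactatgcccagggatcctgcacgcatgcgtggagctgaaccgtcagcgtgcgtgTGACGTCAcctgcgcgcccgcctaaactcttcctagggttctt
RTEL1: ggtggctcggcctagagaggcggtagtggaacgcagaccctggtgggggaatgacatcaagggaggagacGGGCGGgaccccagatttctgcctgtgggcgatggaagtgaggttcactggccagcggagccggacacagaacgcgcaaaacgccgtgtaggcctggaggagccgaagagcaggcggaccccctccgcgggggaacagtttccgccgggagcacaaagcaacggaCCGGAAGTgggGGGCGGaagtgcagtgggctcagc
TINF2: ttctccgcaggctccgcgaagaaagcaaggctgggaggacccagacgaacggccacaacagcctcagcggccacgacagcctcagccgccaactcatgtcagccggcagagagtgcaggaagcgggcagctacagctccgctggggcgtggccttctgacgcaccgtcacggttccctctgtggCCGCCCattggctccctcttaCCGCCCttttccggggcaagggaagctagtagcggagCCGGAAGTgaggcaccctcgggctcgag

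TERT held 3 GC boxes and 1 E-box, and 77.3% of its 300-base promoter entry was G or C. POT1 held 2 GC boxes and 1 cAMP response element. The shown RTEL1 and TINF2 starts each held 2 GC boxes and 1 ETS core. Of 34796 promoter entries of the same length, 44.9% held a GC box, 7.20% an E-box, 4.13% an ETS core and 1.84% a cAMP response element. An E2F site, searched as TTTCCCGC, TTTGGCGC, TTTCGCGC or TTTGCCGC, was found in 3.30% of all entries and, among the 6 matched genes, in ACD alone. A match is a run of letters and not a measured site.

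Few H3K27ac peaks of these genes were called between the 2 states. Calls required a fold change of more than 1.5 with an adjusted p below 0.05, and a called peak was gained where senescent cells were higher and lost where they were lower. Of the members' 17 peaks 0 were gained, against 9.47% of all peaks, and 1 was lost, against 13.1% of all peaks. Taking the adjusted p alone, with no fold limit, 5 of the 17 were higher in senescent cells and 4 were lower, beside 18.9% and 20.3% of all peaks. The values below are the authors' log2 fold changes, senescent over non-senescent, with the standard error (SE) between libraries. No values per library were used, so each state's level is the one implied by the mean count and the fold change.

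**Figure D1:**
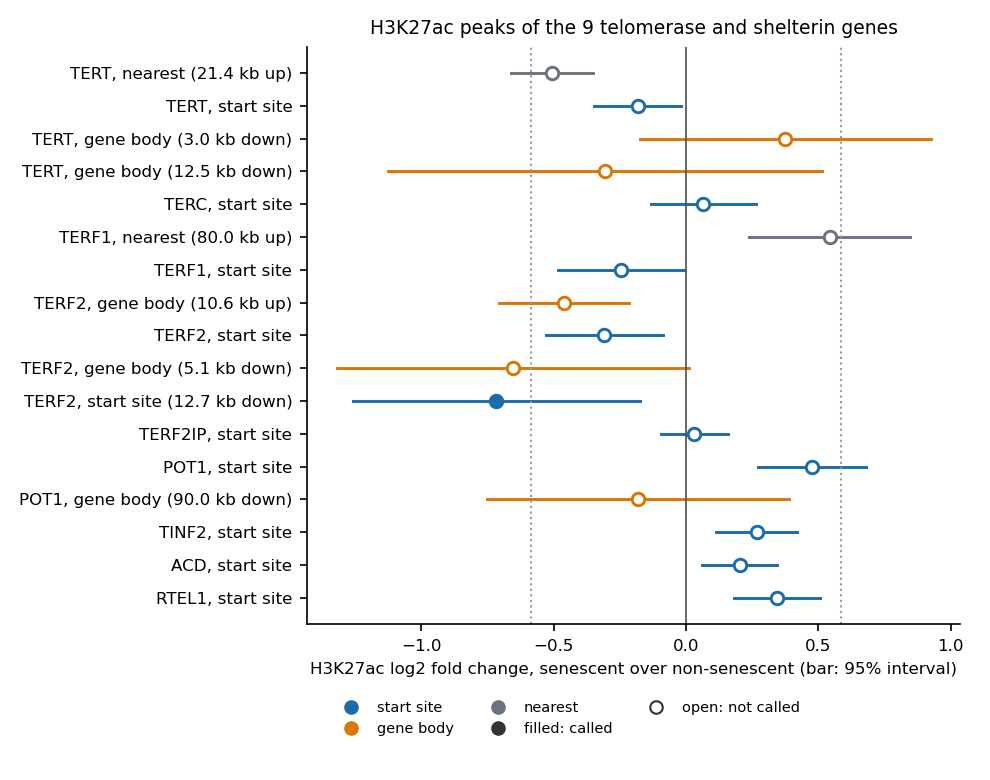
Each row is an H3K27ac peak of a member gene, with its authors' log2 fold change on the x axis (senescent over non-senescent, 3 and 3 libraries) and its 95% interval as a bar; distances are from the canonical start site, and dotted lines mark a fold change of 1.5. The start-site peaks of POT1, RTEL1, TINF2 and ACD lie to the right of 0, all 4 TERF2 peaks lie to the left, and only the TERF2 peak at an alternative start site is called.

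Among start-site peaks alone, 0 of the members' 10 were gained and 1 was lost, where 4.53% and 9.81% of all 14008 start-site peaks were. With no fold limit 4 were higher and 2 lower, where 22.9% and 19.4% of all start-site peaks were. The median log2 fold change over 1 peak per gene, the peak with the highest mean count, was 0.066 for the 9 genes. The median of all start-site peaks was 0.033 and that of all peaks 0.0075.

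The 4 start-site peaks that were higher in senescent cells belonged to POT1, RTEL1, TINF2 and ACD. The POT1 peak (chromosome 7, 124928646 to 124930841) went from an implied 420 normalized reads in non-senescent cells to 584 in senescent cells. This was a log2 fold change of 0.48 (SE 0.10, adjusted p = 3.31e-05), a fold change of 1.39. It exceeded that of 91.1% of start-site peaks, and its lower 95% bound was 0.27. The peak also held the start of the antisense gene POT1-AS1.

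The RTEL1 peak (chromosome 20, 63656348 to 63659756) went from an implied 769.7 to 978 reads. This gave a log2 fold change of 0.35 (SE 0.083, adjusted p = 0.000172). This peak also held the start site of STMN3, whose product binds tubulin, and that of the RTEL1-TNFRSF6B readthrough gene. The TINF2 peak (chromosome 14, 24241244 to 24244421) had a log2 fold change of 0.27 (SE 0.079, adjusted p = 0.00291), from an implied 1074 to 1292 reads. It also held the start of an annotated gene without a symbol. For ACD (chromosome 16, 67658662 to 67662354) the log2 fold change was 0.20 (SE 0.072, adjusted p = 0.0148), from an implied 1533 to 1764 reads. Its peak also held the start site of PARD6A, a cell polarity gene on the other strand. None of these 4 increases can therefore be assigned to the member rather than to the gene that shares its peak. All 4 fold changes were below 1.5.

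TERF2IP and TERC had start-site peaks with little difference. The TERF2IP peak (chromosome 16, 75646645 to 75650657) went from an implied 1559 to 1593 reads, with a log2 fold change of 0.031 and a 95% interval from -0.096 to 0.16. It also held the start of KARS1, which encodes lysyl-tRNA synthetase. The TERC peak (chromosome 3, 169763542 to 169766134) covered the whole 541-base RNA gene and went from 708 to 741 reads, a log2 fold change of 0.066 with an interval from -0.13 to 0.26. Both intervals exclude a fold change of 1.5 in either direction. The TERF1 peak (chromosome 8, 73007943 to 73010154) went from 379.6 to 320.3 reads, with a log2 fold change of -0.25 (SE 0.12, adjusted p = 0.0962).

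**Figure D2:**
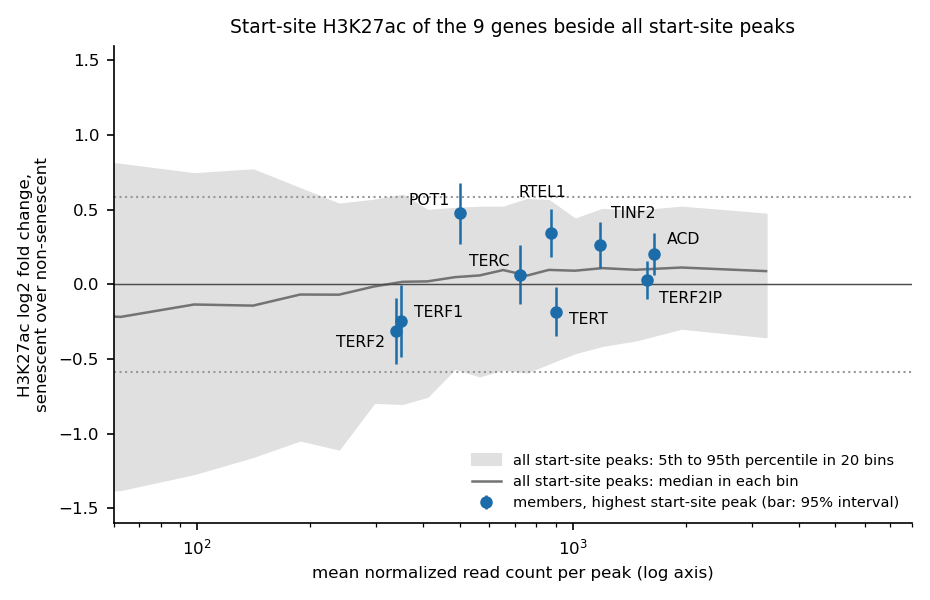
The x axis gives the mean normalized read count of a start-site H3K27ac peak (log axis) and the y axis its log2 fold change; points are the highest start-site peak of each of the 9 genes with 95% intervals, and the grey band and line give the 5th to 95th percentile and the median of all 14008 start-site peaks in 20 bins of mean count. All 9 points lie within the band and within the dotted lines at a fold change of 1.5.

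TERF2, whose protein forms and protects the telomeric loop, was the member with values below 0 throughout. All 4 of its H3K27ac peaks and all 3 of its CTCF peaks had a negative log2 fold change. Of these 7 peaks, 1 H3K27ac and 2 CTCF peaks also lay within 2 kb of a start site of the neighbouring gene CYB5B. The peak at the canonical start (chromosome 16, 69384682 to 69386792) went from an implied 374 to 301 reads, a log2 fold change of -0.31 (SE 0.11, adjusted p = 0.0188). A peak centred 10627 bp upstream of that start, within the longest annotated TERF2 gene span and in the authors' list of senescent enhancers, went from 393 to 285 reads. That was a log2 fold change of -0.46 (SE 0.13, adjusted p = 0.00102). This peak lay 624 bp from a start site of the neighbouring gene CYB5B, nearer than to any TERF2 start.

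The called peak of TERF2 lay 12727 bp downstream of the canonical start and 322 bp from an alternative annotated start site (69372604 to 69373956). It was weak, with 57.3 reads on average against a median of 448 over all start-site peaks, and overlapped no exon of the canonical transcript. It went from an implied 71.2 to 43.3 reads, a log2 fold change of -0.72 (SE 0.28, adjusted p = 0.0276) and a fold change of 1.64. Its 95% interval, from -1.26 to -0.17, includes fold changes well under 1.5. The remaining TERF2 peak, in the gene body with 45.0 reads, had a log2 fold change of -0.65 (SE 0.34, adjusted p = 0.115).

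At TERT the start-site peak (chromosome 5, 1293080 to 1295246) was strong. With 904 reads over 2167 bp it held 417 normalized reads per kb, more than 95.8% of start-site peaks, and among the members only ACD, at 446 per kb, was higher. Between the states it went from an implied 961 to 847 reads, a log2 fold change of -0.18 (SE 0.084, adjusted p = 0.0717), with a 95% interval from -0.35 to -0.017. A fold change of 1.5 in either direction lies outside that interval.

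The position of the TERT peak set it apart from the other start-site peaks. It reached 178 bp upstream of the start site and 1989 bp from the start site onward, over the whole of exons 1 and 2, which are 298 and 1354 bp long. Coding bases made up 72.6% of its width. Of all start-site peaks 0.207% had a coding share as high, and the median start-site peak had 2.15%. The exon layout of TERT enters this share, since exons 1 and 2 fill most of the first 1755 bp of the gene. Among the other 8 genes the canonical start-site peaks reached between 785 and 2094 bp upstream, and their coding shares had a median of 14.6% and were highest at ACD, with 40.3%, where PARD6A exons count too. A second TERT peak (1282301 to 1282800, 21.8 reads) lay over exon 3 and held all 196 bp of it. Exons 4 to 16 of TERT had no H3K27ac peak. The log2 fold change of the exon 3 peak was -0.31 (SE 0.42, adjusted p = 0.593).

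Away from the coding exons TERT had a pair of H3K27ac peaks. A peak centred 21422 bp upstream of the start site (1314369 to 1318610) went from an implied 1084 to 763 reads. It overlapped the neighbouring gene CLPTM1L only in part and was in both of the authors' enhancer lists. Its log2 fold change was -0.51 (SE 0.079, adjusted p = 1.90e-09) and its fold change 1.42, under the limit of 1.5. This peak holds no TERT exon. The other, in intron 2 (1291636 to 1292501, 51.0 reads) and in the senescent enhancer list, had a log2 fold change of 0.37 (SE 0.28, adjusted p = 0.296).

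**Figure D3:**
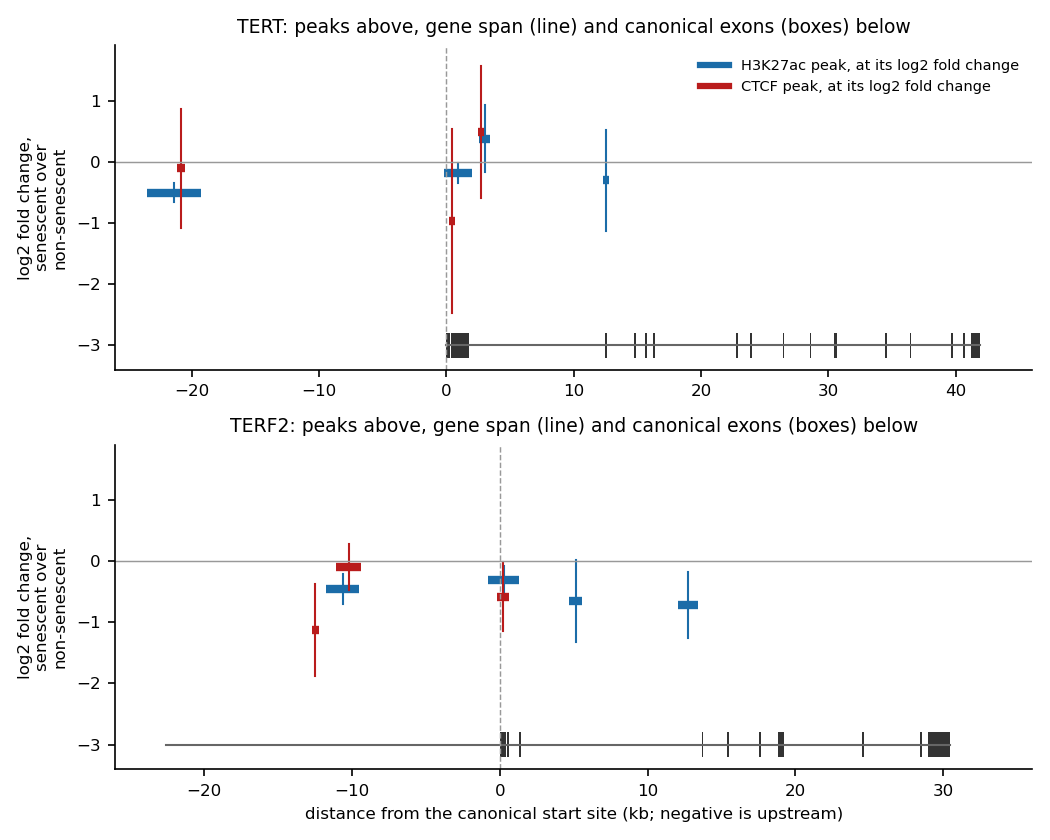
Peaks of TERT (top) and TERF2 (bottom) are drawn as thick bars along the distance from the canonical start site in kb, at the height of their log2 fold change, with 95% intervals as thin lines; black boxes are canonical exons. The strong TERT H3K27ac peak lies over exons 1 and 2, the small one at 12.5 kb lies on exon 3, and every TERF2 bar is below 0.

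Ordered by H3K27ac level per kb at the start site, the genes ran from ACD (446) and TERT (417) over TERF2IP (393), TINF2 (372), TERC (279), RTEL1 (256) and POT1 (228) to TERF2 (159.9) and TERF1 (158). The error of a level was not given by the table, so neighbours in this order, such as TERF2 and TERF1, are not separated here. The TERT level counts reads over coding exons, where those of the transgene and of the chromosomal gene cannot be told apart. The far TERF1 peak, centred 80004 bp upstream (72927587 to 72930132) within KCNB2 and in the senescent enhancer list, went from an implied 169.9 to 248 reads. Its log2 fold change was 0.54 (SE 0.16, adjusted p = 0.00197), opposite in sign to the start-site value of TERF1. The POT1 gene-body peak had 47.95 reads and a log2 fold change of -0.18 (SE 0.29).

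CTCF peaks lay at the start sites of 5 of the 9 genes. TERT, TERC, TERF2, TINF2 and ACD had one within 2 kb of a start site, and TERF2IP and RTEL1 had no CTCF peak by any part of the rule. For CTCF the limits for a call were a fold change of more than 1.5 and an adjusted p below 0.2, applied to all peaks of the table whether or not they held a motif. Of the 16 member peaks 0 were gained and 1 was lost, where 2.99% and 4.28% of all CTCF peaks with an adjusted p were. With no fold limit 1 was higher and 1 lower, beside 6.76% and 6.54%. At start sites 0 of 5 were called in either direction, with an adjusted p for 3 of them, where 0.63% of all start-site CTCF peaks were gained and 5.71% lost. For 3 of the 16 peaks, all with a mean count below 16 reads, the authors' table gave no adjusted p.

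The lost CTCF peak lay in the TERF2 gene span, centred 12464 bp upstream of the canonical start (chromosome 16, 69398245 to 69398697). It went from an implied 38.4 to 17.6 reads, a log2 fold change of -1.12 (SE 0.38, adjusted p = 0.0718) and a fold change of 2.18. It also held an annotated start site of CYB5B, which encodes an outer mitochondrial membrane cytochrome. A second CTCF peak in the span (69395361 to 69397085, 163 reads), overlapped the upstream TERF2 H3K27ac peak and had a log2 fold change of -0.10 (SE 0.19). The CTCF peak at the canonical TERF2 start (69385393 to 69386170) went from 96.8 to 64.6 reads, with a log2 fold change of -0.58 (SE 0.29, adjusted p = 0.254).

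At TERC the CTCF peak nearest to the start (169762538 to 169763633, 139.9 reads) had a log2 fold change of 0.28 (SE 0.19, adjusted p = 0.419). A peak centred 20322 bp downstream of the start (169744146 to 169745331) went from an implied 83.4 to 120.2 reads. Its log2 fold change was 0.53 (SE 0.23, adjusted p = 0.171), with a fold change of 1.44, and it was the member peak that passed the adjusted p alone in the upward direction. TINF2 had the strongest member CTCF peak, with 255 reads at the start site (24242013 to 24243734) and a log2 fold change of -0.045 (SE 0.16). The 4 TERF1 peaks, between 13799 and 95670 bp upstream with 113 to 194 reads, had log2 fold changes from 0.054 to 0.23 and adjusted p from 0.511 to 0.902. Those starting at 72912581 and 72918204 overlapped the gene KCNB2.

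The CTCF peaks of TERT were weak. The start-site peak (1294353 to 1294836), of which coding bases made up 78.5%, had 10.4 reads and a log2 fold change of -0.97, with a 95% interval from -2.48 to 0.53. The intronic peak (1292098 to 1292595, 15.4 reads) had a log2 fold change of 0.49 (SE 0.55) and the upstream one (1315617 to 1316210, 19.7 reads) of -0.11 (SE 0.50). The ACD peak, with 12.5 reads, had a log2 fold change of -0.57 (SE 0.56). That peak lay 52 bp from an ACD start site, outside the ACD gene span, and held a start site of PARD6A. None of these 4 intervals excludes a 1.5-fold fall. Those of the TERT start-site and ACD peaks end at 0.53 and 0.54, just under a 1.5-fold rise at 0.585. With so few reads these bounds are approximate and were not taken to exclude such a rise. The POT1 gene-body peaks had log2 fold changes of 0.31 (SE 0.23, 144 reads) and -0.21 (SE 0.33, 41.8 reads).

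CTCF log2 fold changes varied with base composition over the whole table, so the members are given beside that variation. With CTCF peaks divided into 10 groups by GC content, the median log2 fold change was 0.22 in the lowest group and -0.31 in the highest. The start-site CTCF peaks of TERT, TERF2 and ACD, at 74.6%, 70.2% and 74.7% GC, belonged to the highest group and were negative. The peaks of TERF1, TERC and POT1 lay between 28.5% and 41.8% GC, and only 1 of these 8, at POT1, was negative. Against that order, the TERF2 peak at 40.1% GC was negative, at -0.097 where the median of its GC group was 0.14, and the intronic TERT peak at 52.2% GC was positive, at 0.49 where its group stood at -0.072. Less the median of its GC group, the lost TERF2 peak stood at -1.11 (adjusted p = 0.128) and the downstream TERC peak at 0.34 (adjusted p = 0.579). The median of the 5 start-site peaks was -0.57 beside -0.17 for all start-site CTCF peaks. That median is the value at ACD, and the ACD and TERT peaks, with 12.5 and 10.4 reads, had no adjusted p. The part of base composition in these differences was not tested further.

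**Figure D4:**
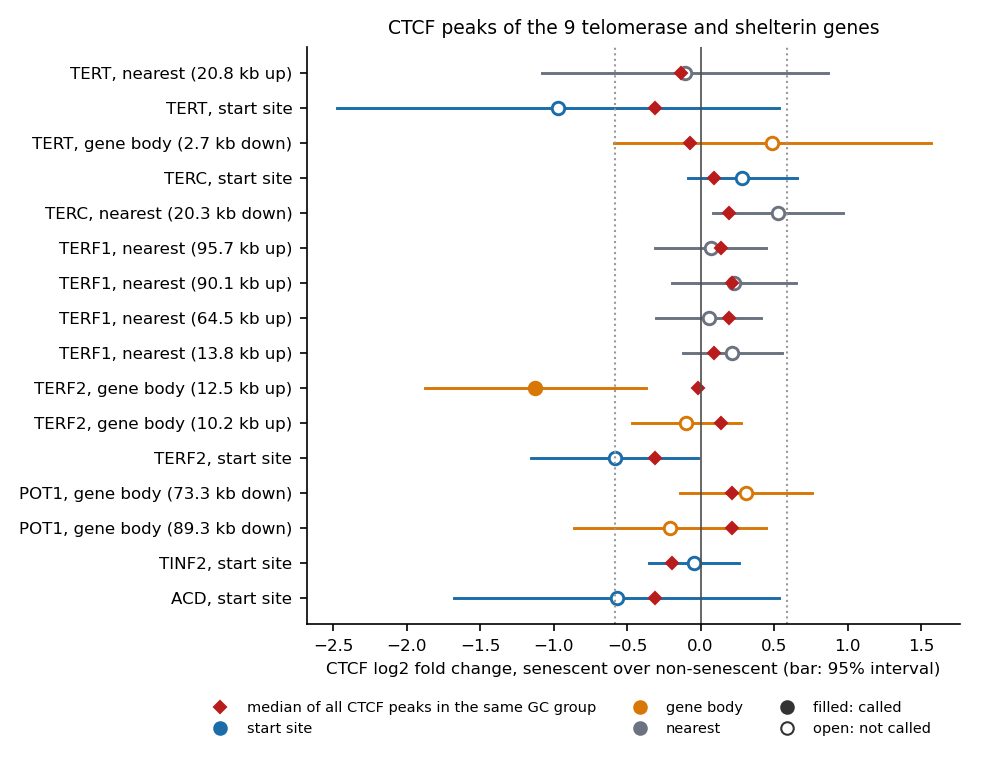
Each row is a CTCF peak of a member gene, with its authors' log2 fold change on the x axis (senescent over non-senescent, 3 and 3 libraries) and its 95% interval as a bar; red diamonds give the median log2 fold change of all CTCF peaks in the same GC group, and dotted lines mark a fold change of 1.5. The intervals of 15 of the 16 peaks hold their diamond, and the lost TERF2 peak lies apart from its own.

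A CTCF core motif of 12 letters, allowing 1 mismatch on either strand, was found in 8 of the 16 member peaks (50%), in 47.2% of all CTCF peaks and in 6.71% of regions of the same widths shifted by 10 kb. An exact match was found in 2 of the 16, at TERF2 and TERF1, and in 13.5% of all CTCF peaks. The lost TERF2 peak and the start-site peaks of TERT, TERF2, TINF2 and ACD held no match. The matches in the gene bodies of POT1 (chr7:124856463-124856494) and TERT (chr5:1292386-1292417), both on the minus strand with 1 mismatch, are shown with the core in capitals, one from a CTCF peak of 144 reads and the other from one of 15.4.
POT1: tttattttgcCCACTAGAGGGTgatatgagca
TERT: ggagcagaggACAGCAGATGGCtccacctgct

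Rb regions and enhancers that the authors listed were also searched. The list of regions bound by Rb specifically in senescent cells had 0 entries within the 9 gene bodies or 2 kb around them, where 2.86% of all 19690 genes had one. For 9 genes a count of 0 is near that share. Rb was measured in 2 non-senescent and 2 senescent libraries. The enhancer lists overlapped 33.3% of all H3K27ac peaks and 4 of the members' 17, which are the intronic and upstream peaks of TERT, the upstream peak of TERF2 and the far peak of TERF1. By the study's definition these lists leave out promoters. Start-site peaks made up 10 of the members' 17 peaks but 14008 of all 51489, so the shares are not like for like.

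Genes that build telomerase, partner shelterin or process chromosome ends were examined beside the members, 13 genes in each of 3 lists, all with an H3K27ac peak at a start site. Like the members, the lists were chosen with earlier results of these data known. Of the 39 genes 0 were gained and 5 were lost, where 4.53% and 9.81% of all start-site peaks were. Each gene counts once here, by its highest peak, whereas the shares over all start-site peaks include weak peaks. The lost genes were DNA2, PIF1, BLM and TIMELESS of the end processing and replication list and RIF1 of the partner list. With no fold limit 7 of the 39 were higher and 8 lower, where 22.9% and 19.4% of all start-site peaks were.

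DNA2, a nuclease and helicase that trims replication and repair intermediates, had the lowest value of all, a log2 fold change of -1.49 (SE 0.12, adjusted p = 5.44e-36). BLM and PIF1, helicases that unwind structured DNA, stood at -0.78 each (SE 0.12 and 0.25, adjusted p = 4.12e-09 and 0.00571). TIMELESS, which stabilizes replication forks, stood at -0.60 (SE 0.11, adjusted p = 1.92e-07). These 4 genes act throughout the genome at replication and repair and not at telomeres alone. The highest member of this list was TEN1, a subunit of the CST complex that completes the telomeric C-rich strand, at 0.24 (SE 0.079). Of the 13 genes of this list 1 was higher and 5 were lower with no fold limit, beside 22.9% and 19.4% of all start-site peaks. The median of the list was -0.057.

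RIF1, which restrains end resection and times replication, had a log2 fold change of -0.88 (SE 0.093, adjusted p = 1.10e-19) in the partner list, and PINX1, a nucleolar telomerase inhibitor, had the highest at 0.57 (SE 0.13, adjusted p = 5.20e-05). The partner list had a median of 0.038. Of the telomerase biogenesis list 0 of 13 genes were called, beside 4.53% gained and 9.81% lost over all start-site peaks. With no fold limit 4 of its genes were higher and 1 lower, beside 22.9% and 19.4%, and its median was 0.056. Its highest value was at NAF1, an assembly factor for telomerase RNA particles, at 0.56 (SE 0.13, adjusted p = 4.61e-05), and its lowest at ZCCHC8, part of a nuclear RNA-decay adaptor, at -0.38 (SE 0.091, adjusted p = 0.000183).

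**Figure D5:**
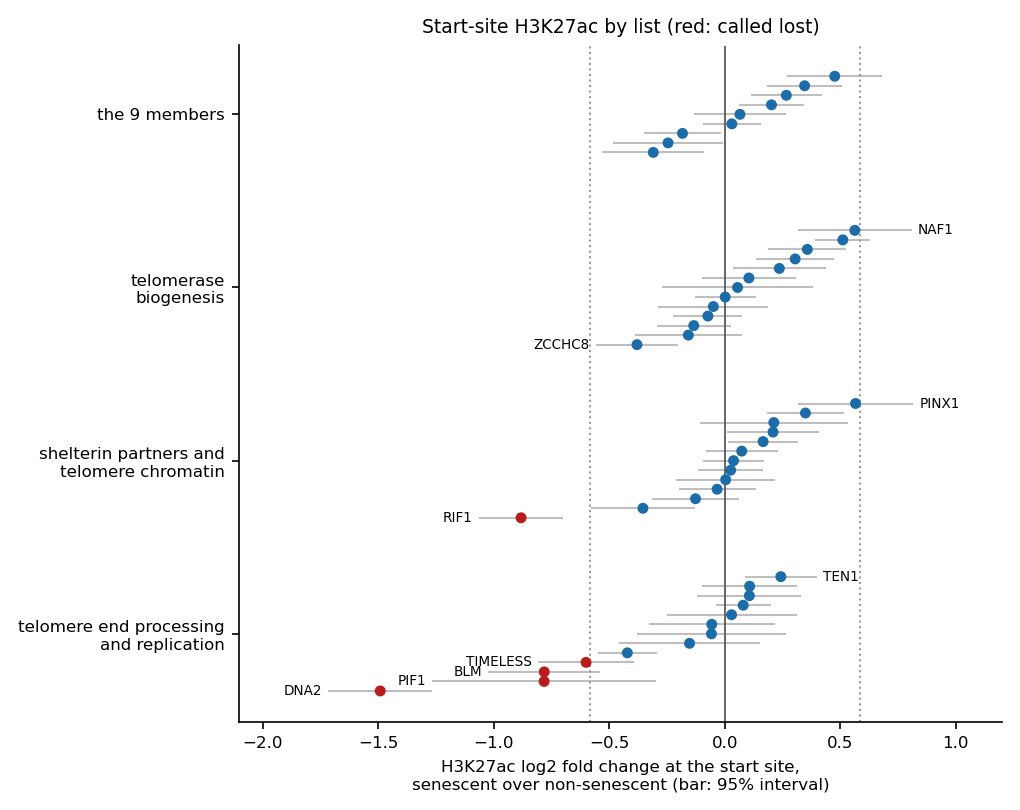
Points give the log2 fold change of the highest start-site H3K27ac peak of each gene, with 95% intervals as bars, for the 9 members and the 3 lists of 13 genes; red points are called lost and dotted lines mark a fold change of 1.5. The members span -0.31 to 0.48, and the 5 lost genes, RIF1, TIMELESS, BLM, PIF1 and DNA2, lie to their left.

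CTCF peaks were present at the start sites of 20 of the 39 genes, and 5 of these peaks had no adjusted p. Of the 20, 1 was gained and 1 was lost, where 0.63% and 5.71% of all start-site CTCF peaks were. BLM was lost, with a log2 fold change of -1.96 (SE 0.48, adjusted p = 0.00643), and EXO1, a nuclease of end resection, was gained, with 1.15 (SE 0.37, adjusted p = 0.0496). Both peaks were weak, with 20.2 and 34.5 reads. The lowest and highest values of the partner list, TNKS2 at -1.52 (SE 0.76) and RAD50 at 0.29 (SE 0.66), came from peaks of 8.12 and 11.2 reads that had no adjusted p. In the biogenesis list the values ran from -0.28 at RUVBL2 (SE 0.13) to 0.11 at NOP10 (SE 0.12).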

How the data were processed

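The ChIP-seq libraries of EndoC-βH3 cells fell, by their labels, into 3 non-senescent and 3 senescent libraries for each of H3K27ac and CTCF. Per the study's methods, the authors aligned reads to hg38 with Bowtie2, called peaks against input (HOMER for H3K27ac, MACS2 for CTCF), and compared raw read counts in peaks with DESeq2. Tool versions are not given in the sources used here. The deposited tables hold that comparison and no values per library, so no model was refitted and a planned count test was replaced by thresholds on the authors' values. The signal deposited by the authors is the mean of read counts divided by size factors. They deposited the log2 fold change with its SE on the log2 scale. The deposited Wald score is the ratio of these values. The deposited p-value and its Benjamini-Hochberg adjustment were computed by the authors. The deposited region lists hold positions only.

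Nothing in the labels says that the libraries came from separate cultures, so p-values measure the spread between these libraries, which may be technical. Scaling by size factors centres the typical peak on no change, and a shift shared by most peaks is therefore invisible. The tables do not give the depth of each library. The study's methods name a target number of reads per library, which was not used as the depth because mean counts summed over peaks exceed it in both tables. Precision follows the counts in a peak, with a median SE of 0.19 over all H3K27ac peaks and 0.29 over all CTCF peaks. Reads in peaks shared by neighbouring or antisense genes cannot be split.

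Peaks were assigned by GENCODE 44 start sites of protein-coding transcripts and of TERC. Chromosome names of the files matched hg38. The level in each state was computed from the mean count and the fold change, taking the mean over equal numbers of libraries, and is approximate. Levels per kb divide by peak width, and input was not subtracted. The 95% intervals are normal intervals from the SE. Called peaks had a fold change of more than 1.5 and an adjusted p below 0.05 for H3K27ac or 0.2 for CTCF, which are limits the study uses. The study applies its CTCF limits to peaks that contain the CTCF motif, whereas here they were applied to all peaks of the table. The called TERF2 CTCF peak held no match to the core motif searched here. GC content and motif matches were read from hg38. The threshold and GC steps were tested on simulated data. Python 3.11.15, pandas 2.3.3, NumPy 2.4.6 and SciPy 1.17.1 were used.

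The members and lists were chosen with earlier results of these data known. Named genes were all members with every peak, neighbours with a start site within 2 kb, and, of the 3 lists, each called gene and the highest and lowest value. POT1-AS1, the unnamed gene at TINF2, RTEL1-TNFRSF6B, CLPTM1L, KCNB2 and CYB5B were named after the peaks were seen, for their position. Alternatives were other fold and adjusted p limits, a minimum mean count, GC centring, and other assignment rules.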

Additional observations from a re-analysis of the deposited data

How the results depend on the processing

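The call of 1 H3K27ac peak became 0 with a fold change above 2 and 0 with a Wald test against a fold change of 1.5, and 9 with no fold limit. The call of 1 CTCF peak became 0 at an adjusted p under 0.05, 0 with a mean count of at least 50, and 2 with no fold limit. Both called peaks were TERF2 peaks with low counts. The authors' DESeq2 test gave an unadjusted p under 0.05 for 11 H3K27ac and 3 CTCF member peaks. The H3K27ac call held with a mean count of at least 50, and the CTCF call held when p-values were adjusted over all CTCF peaks or log2 fold changes were centred by GC content. The other alternatives, which changed the assignment of peaks or the summary of start-site values, left 13 counts and medians within their limits. Peaks assigned to the genes ranged from 15 to 17 for H3K27ac and from 11 to 16 for CTCF. Other limits and assignments left the log2 fold change of each peak as it was, so only GC centring could change a direction. It turned the CTCF values at the TINF2 start site (-0.045 to 0.15) and at the upstream TERT peak (-0.11 to 0.023) positive. It turned those of the TERF1 peaks starting at 72912581 (0.069 to -0.071) and 72943637 (0.054 to -0.14) negative. None of these peaks was called, and the called CTCF peak kept its direction. Leaving out libraries was not run. No paired analysis was possible because the tables hold no values per library. Low counts limit the CTCF peaks of TERT and ACD most.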
